A study of Mus musculus with 5 samples.

Results

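The genes described here are 37 cytosolic and mitochondrial chaperone genes of the mouse. They were taken from a list of names of heat shock, HSP70, HSP90 and chaperonin genes and their helpers, and the list was matched to the 24046 gene symbols of a bulk RNA-seq table of hematopoietic stem cells (HSCs). All 37 were found, and all 37 were among the 13661 genes abundant enough to be tested. The study asked how loss of SYNCRIP, an RNA-binding protein, alters HSCs after transplantation. By the numbers in the labels, WT 1, WT 2 and WT 3 made up the control group of 3 libraries, set against the 2 libraries KO 2 and KO 3. The WT genotype was Syncrip flox/flox, Mx1 Cre-, and the KO genotype was Syncrip flox/flox, Mx1 Cre+. All groups shared the floxed alleles, the transplantation and the drug: whole marrow had been placed in irradiated congenic CD45.1 recipients, pIpC was injected, and cells were taken 9 weeks after transplantation and 3 weeks after pIpC. The study's methods gave donors and recipients as 6 to 8 weeks old at transplantation. Mx1 is an interferon-responsive promoter and pIpC induces interferon, so that Cre is switched on in many cell types of the donor marrow and the recipient environment keeps intact Syncrip. Donor cells were sorted as CD45.2+, Lin-, Sca1+, cKit+, CD150+ and CD48-. The study described its replicates in general as biological, but no label tied these libraries to separate mice, and the p-values measured only the spread between these libraries, which may be partly technical.

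Chaperones help newly made or damaged proteins reach their folded state. HSP70 proteins bind exposed stretches of a client in cycles of ATP hydrolysis that J-domain proteins (HSP40s) start and nucleotide exchange factors end, HSP90 takes over clients such as kinases and steroid receptors with the help of a large set of co-chaperones, and the barrel-shaped chaperonins, TRiC in the cytosol and HSP60 with HSP10 in mitochondria, enclose a client while it folds. When unfolded proteins accumulate, the transcription factor HSF1 is released from chaperones, binds heat shock elements in promoters and switches on the inducible members of these families, and HSCs are known as cells that depend on tight control of protein quality.

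The heat shock element is built from inverted GAA blocks, and the sites below are shown because HSF1 is the regulator that links most of the inducible members. RefSeq promoter windows (build GRCm38.p6, 250 bases before to 50 bases after a transcript start) were held for 29 of the 37 genes (all but Hsf1, Hsp90ab1, St13, Hsp90aa1, Cryab, Hspa9, Hspa8 and Cct4) and were searched on both strands for a long motif of 3 blocks (GAA, NN, TTC, NN and GAA in a row, or TTC, NN, GAA, NN and TTC, N being any base) and for a short motif of 2 blocks (GAA, NN and TTC, or TTC, NN and GAA), which lies within the long one. The long motif was found in 5 of the 29 genes, Chordc1, Dnajb6, Hspd1, Hspe1 and Hsph1, against 0.662% of all 27025 symbols. The short one was found in 16 of the 29 against 16.97%. A symbol counted if any of its windows held a match. A match is a description of letters and was not a measure of binding. Each line is 5′ to 3′ on the gene's strand, capitals mark the overlapping matches, and Hspd1 and Hspe1, which are transcribed away from each other, share the same bases read on opposite strands.
Chordc1 (chr9:18292260-18292288, + strand): ccgGAACGTTCGGGAAAATTCCTGAAgca
Hspe1 (chr1:55088053-55088082, + strand): ggtccgTTCTAGAACCTTCCGGAAggcccc
Hspd1 (chr1:55088053-55088082, - strand): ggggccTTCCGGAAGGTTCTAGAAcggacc
Dnajb6 (chr5:29735844-29735872, + strand): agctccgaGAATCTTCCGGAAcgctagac
Hsph1 (chr5:149636280-149636308, - strand): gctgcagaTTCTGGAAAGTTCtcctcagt
Hspa1a (chr17:34972242-34972271, - strand): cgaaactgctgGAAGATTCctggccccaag
The Chordc1 block spanned the start itself, from position -4 to 18 with the start base as 0. The shared block lay at -89 to -72 from the start of Hspe1 and at -144 to -127 from that of Hspd1. Hspa1a and its neighbour Hspa1b carried the short motif at -104 in the same 30 bases, and their promoter windows were identical at 296 of 300 positions.

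Syncrip itself was measured first as a check of the labels. Its normalized read count, the count divided by a size factor of the library, averaged 1726 ± 259 (SD, n = 3) in WT and 319 ± 34.8 (SD, n = 2) in KO, or 18.5% of the WT level (log2 fold change -2.43 with an SE of 0.22, adjusted p = 0.0352 by limma). The KO values were below all WT values, but the adjusted p was 0.0503 without the filter, 0.0595 with array weights and 0.164 to 0.209 when 1 WT library was left out, and the log2 fold change was -1.46 (adjusted p = 0.143 by limma) with a trend on transcript length and GC content taken out. Depth was 21748781 to 22779536 reads in the WT libraries, 18308876 in KO 2 and 12539599 in KO 3. All 11 markers of HSCs and of the sort gate had reads in every library, Cd48 included. Genes of neutrophil granules and other myeloid genes, 10 of 10 with reads in every library, took 6.16% to 7.44% of WT reads, 5.46% of KO 2 and 2.64% of KO 3. They did not move alike. Elane and Prtn3 had log2 fold changes of 0.02 and 0.30, and Mpo and Ctsg of -0.28 and -0.38. S100a8, S100a9, Ltf, Ngp, Lyz2 and Camp ran from -1.51 to -0.85. Adipose genes took 0.148% of KO 2 and at most 0.00326% of any other library, and all 12 of them were highest in KO 2. Immediate early genes, which respond to cell dissociation, took 0.235% of WT 2 and 0.244% of KO 3 but 0.142% to 0.162% of the rest. Erythroid genes took at most 0.0788% of any library, and stromal and endothelial, lymphoid and muscle genes each at most 0.0136%. The 0.0136% was the stromal and endothelial share of WT 2, where 5 of the 7 genes of that list were highest, against at most 0.00465% in the other libraries. The part of these differences in the results below was not tested.

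None of the 37 chaperone genes differed between KO and WT at a limma adjusted p under 0.05, and 0.00732% of all tested genes did. Values are on the log2(normalized read count + 1) scale, with 2 KO and 3 WT libraries. An unadjusted p under 0.05 was reached by 11 members and by 27.8% of all tested genes: 2 members were higher in KO (background 13.3%) and 9 lower (background 14.5%). With the looser limit of an adjusted p under 0.1, Cdc37 was higher (background 4.76%) and Chordc1, Hspa4l, Hsp90aa1 and Cct6a lower (background 6.47%). The groups did not overlap for 19 members, against 47.1% of all genes: KO lay wholly below WT for 14 (23.2%) and wholly above for 5 (23.9%). By sign alone, 25 of the 37 had a fold change below 0, against 48.9% of all tested genes, and the median log2 fold change was -0.16, against 0.02 over all genes tested. No member stood clear of the spread between libraries by the limma criterion. In bulk samples, fewer cells of a type and less RNA per cell cannot be told apart.

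**Figure D1:**
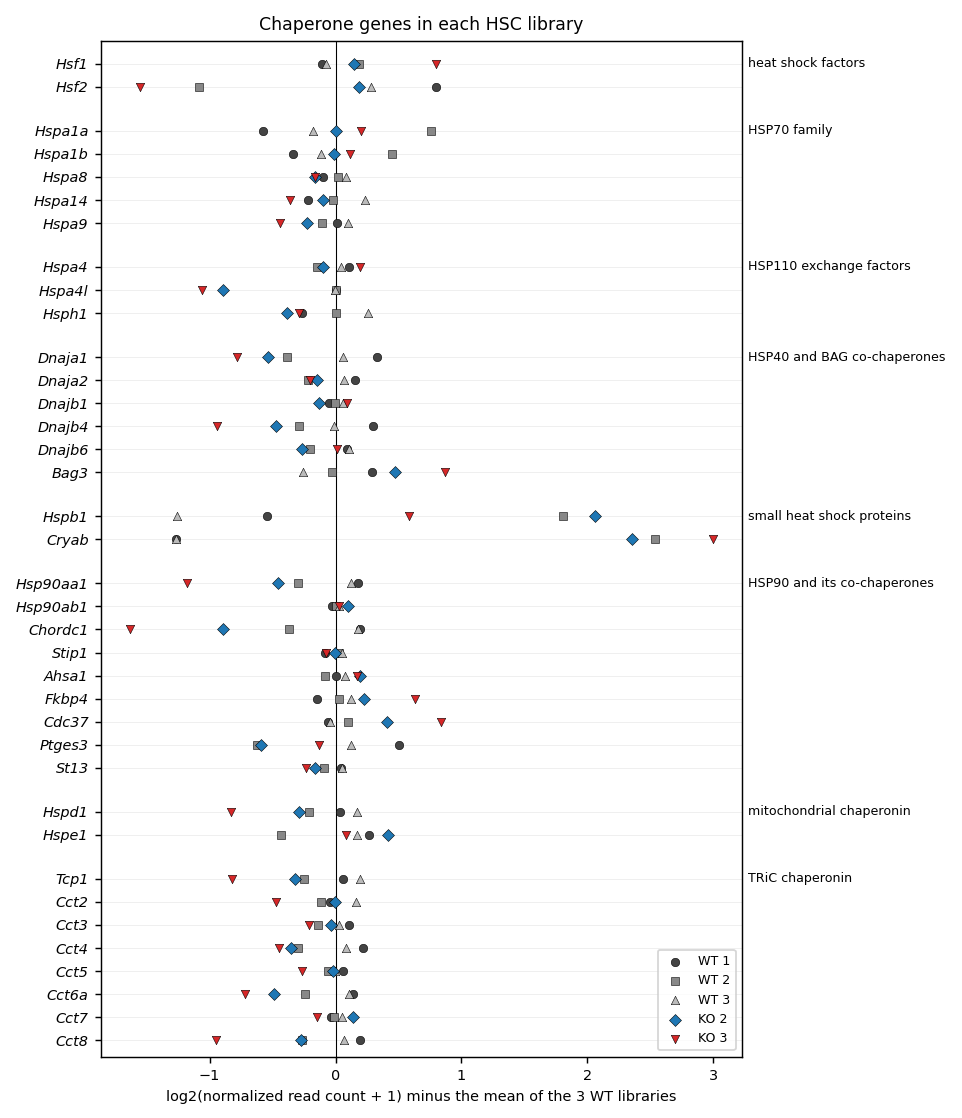
Each of the 37 chaperone genes in each of the 5 libraries, as log2(normalized read count + 1) minus the mean of the 3 WT libraries, on the horizontal axis, with genes in rows grouped by class. Gray symbols are WT libraries, blue diamonds KO 2 and red triangles KO 3. Most points lie within 1 log2 unit of 0, KO 3 (red) is the lowest library for 18 genes, and the wide scatter of Hspb1, Cryab and Hsf2 belongs to genes with few reads.

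The libraries were not alike within a group. KO 3 was the lowest of the 5 libraries for 18 of the 37 genes (4604 of all 13661 tested genes) and lay farther from the WT mean than KO 2 for 28. WT 2 was the lowest of the WT libraries for 21 (4524 of all tested genes). Of all reads, the members together took 0.890% in KO 3, 0.954% in KO 2 and 0.953% in WT 2, and WT 3 and WT 1 gave 1.02% and 1.05%. The chaperone share of KO 2 thus sat beside that of WT 2, and KO 3 alone was below both. When KO 3 alone was set against the WT libraries by limma, with its spread taken from the others, 10 members passed an adjusted p under 0.05 (26.6% of all genes did), and with KO 2 alone 0 did (0.082%). With KO 3 alone and with KO 2 alone, the log2 fold change of Chordc1 was -1.63 and -0.89, that of Hsp90aa1 -1.18 and -0.45, that of Hspd1 -0.83 and -0.29, and that of Tcp1 -0.82 and -0.32. On the other side of 0, it was 0.84 and 0.41 for Cdc37, 0.80 and 0.15 for Hsf1 and 0.63 and 0.23 for Fkbp4. Each of these 7 values was more than 1.5 times as far from 0 with KO 3 alone as with KO 2 alone. That did not hold for every member. In the same order, Hspa4l was at -1.06 and -0.90 and Cct6a at -0.72 and -0.49, which were closer together, while Cct8 was at -0.95 and -0.27. For 13 genes the highest and the lowest of all 5 libraries were within 1.5-fold of each other, and 16 had a log2 fold change of less than 0.25 in size.

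With DESeq2 on the whole reads recovered from the table, 5 of the 36 members that received an adjusted p were called at 0.05, against 18.7% of all genes that received one. Cdc37 was higher in KO (background 9.27%), and Chordc1, Hspa4l, Hsp90aa1 and Cct6a were lower (background 9.46%). With edgeR's quasi-likelihood test on the same reads, 0 members were called (0.0146% of all genes were) and 11 had an unadjusted p under 0.05, against 27.2% of all genes. These 5 genes are described with their classes below.

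In the paragraphs that follow, values are normalized read counts, and the WT values stand in the order WT 1, WT 2, WT 3 and the KO values in the order KO 2, KO 3. For Hsf1, the master transcription factor of the heat shock response, the WT values were 1475, 1816 and 1507 and the KO values 1766 and 2769. KO 3 was the highest library, and KO 2 fell inside the WT range. Its log2 fold change of 0.47 had an SE of 0.23 (limma adjusted p = 0.218), and it turned to -0.08 when the length and GC trend described below was taken out. Hsf2, a related factor best known from development, had only 6 to 61 raw reads per library and values of 50.8, 13.02 and 35.1 in WT against 32.9 and 9.11 in KO. KO 2 lay inside the WT range of Hsf2 and KO 3 below it, and its fold change was the least certain among the lower members (log2 -0.68, SE 0.85).

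The stress-inducible HSP70 genes Hspa1a and Hspa1b are the textbook outputs of HSF1. Hspa1a stood at 1258, 3176 and 1654 in WT and at 1879 and 2161 in KO. Hspa1b stood at 2391, 4122 and 2789 in WT and at 2990.3 and 3274 in KO. In both genes WT 2 was the highest library, WT 1 the lowest, and the KO libraries lay between WT 3 and WT 2. WT 2 was also the WT library with the highest share of immediate early genes (0.235%), and the part of that difference in these values was not tested. The log2 fold changes were 0.10 (SE 0.35) for Hspa1a and 0.05 (SE 0.24) for Hspa1b, with limma adjusted p = 0.865 and 0.902. The arithmetic means were as close, with Hspa1a at 2029 ± 1013 (SD, 3 WT libraries) and 2020.1 ± 199 (SD, 2 KO libraries) and Hspa1b at 3101 ± 906 and 3132 ± 201, so that the sign for Hspa1a depended on the scale. The copies lie side by side on chromosome 17 (Hspa1a chr17:34969190-34972156 and Hspa1b chr17:34956436-34959238, both on the minus strand, build GRCm38), and 66.3% and 62.3% of the 50-base stretches of their transcripts also occur in other genes' transcripts. For each copy, the other copy was the gene that shared the most stretches. Their split between the symbols is therefore uncertain. Their sum was 3649, 7298 and 4443 in WT and 4869 and 5435 in KO, which left the same order of libraries.

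Hspa8 (HSC70) does the everyday work of HSP70 in the cytosol and had the second highest WT level per kilobase of transcript among the members, 6092 normalized reads per kb. It stood at 13626, 14737 and 15388 in WT and at 12974 and 13041 in KO. The KO libraries were just below the lowest WT library, and the KO mean was 89.2% of the WT mean (log2 fold change -0.16 with an SE of 0.16, adjusted p = 0.534 by limma). For Hspa8, 74.8% of 50-base stretches occur in other annotated transcripts. The ratio of inducible to constitutive HSP70, Hspa1a plus Hspa1b over Hspa8, was 0.268, 0.495 and 0.289 in WT and 0.375 and 0.417 in KO. The KO ratios lay within the WT range (exact permutation test, two-sided, p = 0.6, adjusted over 3 ratios 0.6, smallest possible 0.2). Of the remaining HSP70 proteins, Hspa9 (mortalin), which pulls proteins into the mitochondrial matrix, was at a log2 fold change of -0.33 with both KO libraries below all WT libraries, and the ribosome-associated Hspa14 was at -0.23 with overlapping groups. Hspa9 and Hspa14 were at -0.0014 and -0.012 with the length and GC trend described below taken out.

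The HSP110 proteins are exchange factors that reset HSP70. Hspa4l (chr3:40744495-40796103) had the tightest WT values of any member, 1359, 1352 and 1347, against 727 and 648 in KO. The gap between the groups was far wider than the spread in either, and the KO mean of 688 ± 55.3 (SD, n = 2) was 50.8% of the WT mean of 1353 ± 5.78 (SD, n = 3). The log2 fold change was -0.98 (SE 0.19), with an adjusted p of 0.0815 by limma, 0.0926 by edgeR and 0.000132 by DESeq2. Its relatives were closer to 0: Hsph1 (HSP105), the inducible HSP110, was at -0.34 with both KO libraries just below the lowest WT library, and Hspa4 was at 0.05 with overlapping groups. Once the GC trend described below was taken out, Hspa4l was at -0.20 (SE 0.17).

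Among the J-domain proteins, Dnajb1 is the inducible partner of HSP70, with 3048, 3141 and 3282 in WT and 2876 and 3362 in KO. KO 2 was the lowest library and KO 3 the highest, for a log2 fold change of -0.02 (SE 0.17, adjusted p = 0.944 by limma). Dnaja1, a type A J-domain protein, had 1967, 1199 and 1638 in WT and 1079 and 911 in KO. Dnajb4, an inducible type B member, had 549, 365 and 441 in WT and 319.7 and 231 in KO. For Dnaja1 and Dnajb4 both KO libraries lay below the lowest WT library, which was WT 2 in each case, and the step from WT 2 to KO 2 was smaller than the range of the WT libraries. Their log2 fold changes were -0.66 (SE 0.24) and -0.71 (SE 0.29), with limma adjusted p = 0.129 and 0.160, and they turned to 0.0024 and 0.14 with the trend described below taken out. Dnaja2 and Dnajb6, which holds aggregation-prone proteins, were at -0.18 and -0.13 with overlapping groups. Bag3, an inducible exchange factor that hands HSP70 clients to selective autophagy, had 366, 294 and 251 in WT and 417 and 548 in KO, so that both KO libraries were above all WT libraries (log2 fold change 0.67 with an SE of 0.28, adjusted p = 0.168 by limma, and 0.23 with the trend taken out).

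The small heat shock proteins, which hold unfolded clients without ATP, were barely detected. Hspb1 (HSP25) gave 13.3, 72.0 and 7.71 in WT and 86.3 and 30.4 in KO, from 9 to 84 raw reads. Cryab (alpha-B crystallin) gave 0, 13.02 and 0 in WT and 11.3 and 18.2 in KO, from 0 to 15 raw reads, where 0 reads allow up to 3. For both genes WT 2, the library with the highest share of stromal and endothelial genes, stood with the KO libraries, and the part of that share was not tested. Their log2 fold changes of 1.33 (SE 0.97) and 2.67 (SE 1.54) were the highest of the 37, and neither differed beyond the spread between libraries (limma adjusted p = 0.396 and 0.284). The sizes moved with the setting: with a pseudocount of 10 they were 0.95 and 0.89, with DESeq2 0.92 and 1.77, with the trend described below taken out 0.50 and 2.39, and without WT 2 they were 2.23 and 3.94. The exons of Cryab overlap those of Hspb2 on the opposite strand over 17.04% of their bases, and 51.7% of 50-base stretches of Hspb1 occur in other transcripts, pseudogenes included.

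Cytosolic HSP90 comes from a constitutive and an inducible gene. Hsp90ab1, the constitutive HSP90, had the highest WT level per kilobase of the members (9875 normalized reads per kb), at 24376.5, 24966 and 25309.9 in WT and 26657 and 25338 in KO. Its 5 libraries were nearly level, with KO 2 and KO 3 a little above the WT libraries (log2 fold change 0.06 with an SE of 0.17, adjusted p = 0.827 by limma). Hsp90aa1, the inducible HSP90, had 11190.5, 8049 and 10795 in WT and 7233 and 4365 in KO. KO 3 was far below the rest, and KO 2 was closer to WT 2 than to KO 3. The KO mean was 5799 ± 2028 (SD, n = 2) against 10011 ± 1711 in WT (SD, n = 3), or 57.9%, and the log2 fold change was -0.82 (SE 0.25), with an adjusted p of 0.0992 by limma, 0.116 by edgeR and 0.0300 by DESeq2. With the trend described below taken out, Hsp90aa1 was at -0.33 (SE 0.17) and Hsp90ab1 at 0.01, so that the gap between them was smaller. The ratio of Hsp90aa1 to Hsp90ab1 was 0.459, 0.322 and 0.427 in WT and 0.271 and 0.172 in KO, lower in both KO libraries than in any WT library (exact permutation test, two-sided, p = 0.2, which is the smallest that 3 against 2 libraries allow, adjusted over 3 ratios 0.3). For Hsp90aa1, 58.5% of 50-base stretches occur in other annotated transcripts, many of them pseudogenes, against 4.49% for Hsp90ab1.

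**Figure D2:**
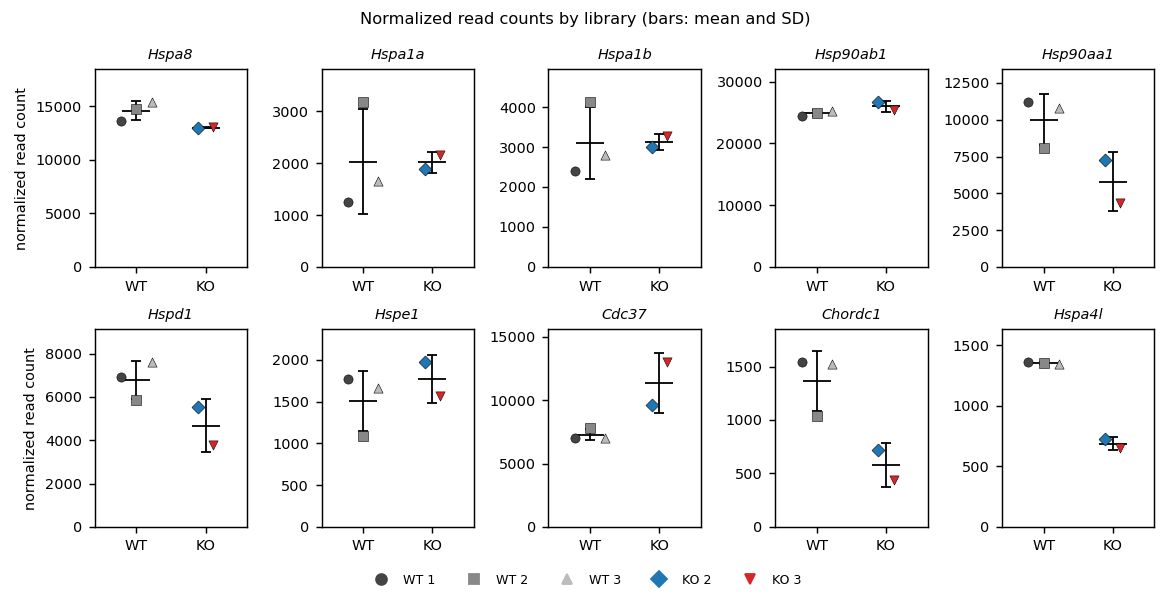
Normalized read counts of 10 chaperone genes in the 5 libraries, on a linear axis from 0, with WT libraries in gray and KO libraries in color. Horizontal bars are group means and vertical bars the SD (n = 3 for WT, n = 2 for KO). Hspa1a and Hspa1b overlap between groups with WT 2 highest, Hsp90ab1 is level, and Hsp90aa1, Chordc1 and Hspa4l are lower and Cdc37 higher in both KO libraries.

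The co-chaperones of HSP90 ranged widely, from Chordc1 at the low end to Cdc37 at the high end. Chordc1, an inducible HSP90 co-chaperone, stood at 1540.1, 1039.7 and 1520.2 in WT and at 724 and 434 in KO. Both KO libraries lay below WT 2, itself the lowest of the WT libraries. The KO mean of 579 ± 205 (SD, n = 2) was 42.4% of the WT mean of 1367 ± 283 (SD, n = 3), and the log2 fold change of -1.26 (SE 0.29) was the lowest of the 37, with an adjusted p of 0.0815 by limma, 0.0926 by edgeR and 0.00273 by DESeq2. Cdc37, which loads protein kinases onto HSP90, had 6985, 7799 and 7036 in WT and 9649 and 12994 in KO. The KO values exceeded every WT value, by more than the range of the WT libraries. Its KO mean of 11322 ± 2365 (SD, n = 2) was 156% of the WT mean of 7273 ± 456 (SD, n = 3), and the log2 fold change was 0.62 (SE 0.19), with an adjusted p of 0.0941 by limma, 0.103 by edgeR and 0.0176 by DESeq2. Unlike that of Chordc1, which moved to -0.19 (SE 0.17), the fold change of Cdc37 was nearly the same once the trend described below was taken out (0.58, SE 0.14, limma adjusted p = 0.200, unadjusted p = 0.00270). That trend used the longest coding transcript, which for Cdc37 had 7851 bases at 50.4% GC. Other transcripts of Cdc37 were not tried, and the value depends on this choice.

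Fkbp4 (FKBP52), an immunophilin of steroid receptor complexes, stood at 8815, 9963 and 10675 in WT and at 11463 and 15120.2 in KO. KO 3 was far above the WT libraries and KO 2 above them by less than their range (log2 fold change 0.43 with an SE of 0.19, adjusted p = 0.184 by limma, and 0.02 with the trend described below taken out). The remaining co-chaperones were closer to WT. Ahsa1 (AHA1), which speeds the HSP90 ATPase, was at 0.18 with both KO libraries above all WT libraries, and Stip1 (HOP), the adaptor between HSP70 and HSP90, was at -0.04 with overlapping groups. St13 (HIP), which keeps HSP70 bound to its client, was at -0.20 with both KO libraries below, and Ptges3 (p23), which stabilises the closed HSP90 complex, was at -0.36 with a WT range of 1065 to 2335 that held both KO values. St13 and Ptges3 turned to 0.32 and 0.18 with the trend taken out. Of the 9 genes that code for HSP90 and its co-chaperones, Hsp90aa1 and Hsp90ab1 included, 4 were separated upward and 3 downward (23.9% and 23.2% of all genes were), and their median log2 fold change was -0.04.

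Hspd1 (HSP60) and Hspe1 (HSP10) form the folding chamber of the mitochondrial matrix and its lid, and they share the promoter whose heat shock element is printed above. Hspd1 stood at 6922, 5846 and 7599 in WT and at 5524 and 3792 in KO. Hspe1 stood at 1772, 1093 and 1658 in WT and at 1972 and 1563 in KO. For Hspd1 the KO libraries were the lowest, whereas for Hspe1 KO 2 was the highest library and KO 3 lay within the WT range. The log2 fold changes were -0.56 (SE 0.21) and 0.25 (SE 0.25), with limma adjusted p = 0.138 and 0.533, and when 1 library was left out they ran from -0.83 to -0.29 and from 0.034 to 0.42. Taking out the trend described below gave -0.30 for Hspd1 and 0.19 for Hspe1, a smaller gap. The ratio of Hspd1 to Hspe1 was 3.91, 5.35 and 4.58 in WT and 2.80 and 2.43 in KO, lower in both KO libraries (exact permutation test, two-sided, p = 0.2, the smallest possible, adjusted over 3 ratios 0.3). The genes lie head to head (Hspd1 chr1:55077835-55088243, minus strand, and Hspe1 chr1:55088132-55091307, plus strand, build GRCm38), their exons overlap over 4.24% and 7.60% of their bases, and 44.8% of the 50-base stretches of each occur in other transcripts. For the other genes with the long motif, the log2 fold changes were -1.26 for Chordc1, -0.34 for Hsph1 and -0.13 for Dnajb6, so that the 5 carriers lay on both sides of 0.

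TRiC, the cytosolic chaperonin that folds actin and tubulin, is built from a ring of different subunits, and all 8 subunit genes were measured. All 8 had log2 fold changes below 0, from -0.61 to -0.002, with a median of -0.32. Both KO libraries were below all WT libraries for 4 of them, Tcp1, Cct4, Cct6a and Cct8, as for 23.2% of all genes. With the trend described below taken out, the median was -0.10, with Cct2 at 0.0037 and Cct4 at -0.0056. The KO 3 library was the lower KO library for all 8, and the subunit medians relative to WT were -0.16 in KO 2, -0.46 in KO 3 and -0.28 in WT 2. Cct6a stood at 9442, 7278 and 9226 in WT and at 6118 and 5214 in KO. Even the lowest WT library, WT 2, was above both KO libraries, and the log2 fold change was -0.60 (SE 0.19), with an adjusted p of 0.0995 by limma, 0.107 by edgeR and 0.0251 by DESeq2. Its exons overlap those of Psph on the opposite strand and of Snora15 on the same strand, together over 15.3% of their bases. Cct8 was at -0.61 (limma adjusted p = 0.147), but at -0.08 with the trend taken out, and at -0.27 without KO 3 and -0.95 without KO 2. Tcp1 was at -0.57 (limma adjusted p = 0.136), Cct4 was at -0.40, and Cct2, Cct5, Cct3 and Cct7 were at -0.24, -0.14, -0.12 and -0.002 with overlapping groups.

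The heat-inducible members did not move as a block. The 17 genes classed as inducible were Hspa1a, Hspa1b, Hspa8, Hsph1, Dnaja1, Dnajb1, Dnajb4, Bag3, Hspb1, Cryab, Hsp90aa1, Chordc1, Stip1, Ahsa1, Fkbp4, Hspd1 and Hspe1, with Hspa8 counted as inducible although it is also the constitutive HSP70. Of these, 8 had log2 fold changes above 0 and 9 below, with a median of -0.02, and 3 were separated upward and 7 downward (23.9% and 23.2% of all genes were). Of the 20 others, 4 were above 0 and 16 below, with a median of -0.22. With the trend described below taken out, the order of the medians turned, to -0.12 for the inducible genes and -0.0090 for the others. Chordc1 and Hsp90aa1 were the lowest inducible genes, and Bag3, Hspb1 and Cryab the highest.

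The fold changes of the members followed the GC content of their transcripts. The 10 genes with a GC content under 45% all had log2 fold changes below 0, with a median of -0.67. All 3067 tested genes with a known GC content in that range had a median of -0.63. The 17 genes from 45% to 52% had a median of -0.16 (all genes -0.12), and of the 10 genes at 52% or more 8 were above 0, with a median of 0.30 (all genes 0.42). Over the 37 genes, Pearson's r between GC content and log2 fold change was 0.72 and Spearman's rho 0.87, a description over genes that share the same 5 libraries. Under 45% GC, the medians of the members relative to the WT mean were 0.29, -0.44 and 0.10 in the WT libraries and -0.47 and -0.95 in the KO libraries. The medians of WT 2 and KO 2 were close, although KO 2 was below WT 2 for 7 of the 10 genes.

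**Figure D3:**
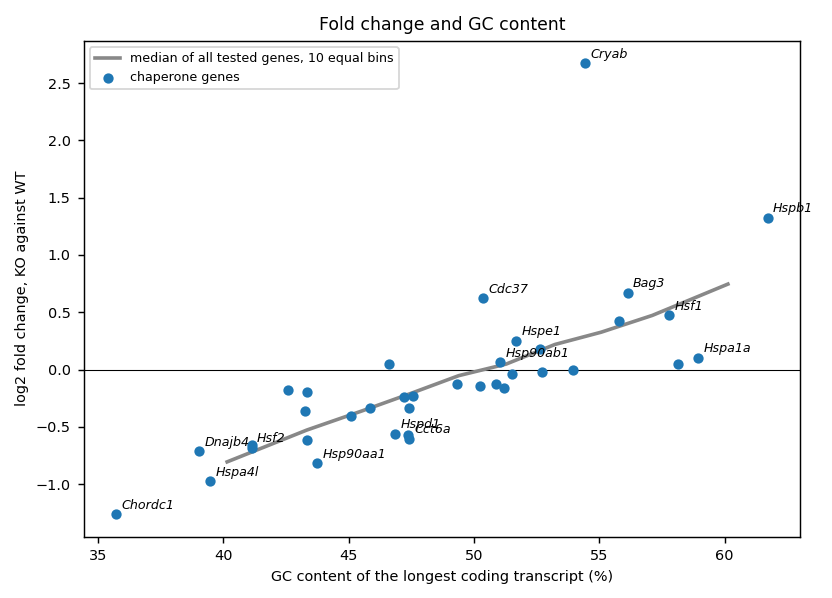
Log2 fold change of KO against WT (vertical axis) against the GC content in percent of the longest coding transcript (horizontal axis) for the 37 chaperone genes (blue points). The gray line joins the medians of all tested genes in 10 equal bins, from -0.81 at 40.1% GC to 0.75 at 60.1%. Most chaperone genes lie near the line, with Cdc37 and Cryab above it and Hspa1a below it.

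A linear trend on transcript length and GC content was then taken out of each library before the limma fit. Under this setting the median of the members was -0.01, against -0.02 over all genes, and r with GC content was 0.09. Here 4 members had an unadjusted p under 0.05, against 16% of all genes: Cdc37 (0.58) and Dnaja2 (0.40, SE 0.15) were higher (background 7.22%) and Hspa1b (-0.54, SE 0.18) and Cct6a (-0.38, SE 0.14) lower (background 8.83%). Their limma adjusted p ran from 0.200 to 0.262, so that 0 members were called. Hspa1a stood beside Hspa1b at -0.55 (SE 0.28), and Hsp90aa1, Tcp1 and Hspd1 at -0.33, -0.35 and -0.30. The 10 genes under 45% GC lay between -0.33 for Hsp90aa1 and 0.40 for Dnaja2, with Chordc1 at -0.19, Hspa4l at -0.20 and Dnajb4 at 0.14. The cause of the trend was not tested.

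**Figure D4:**
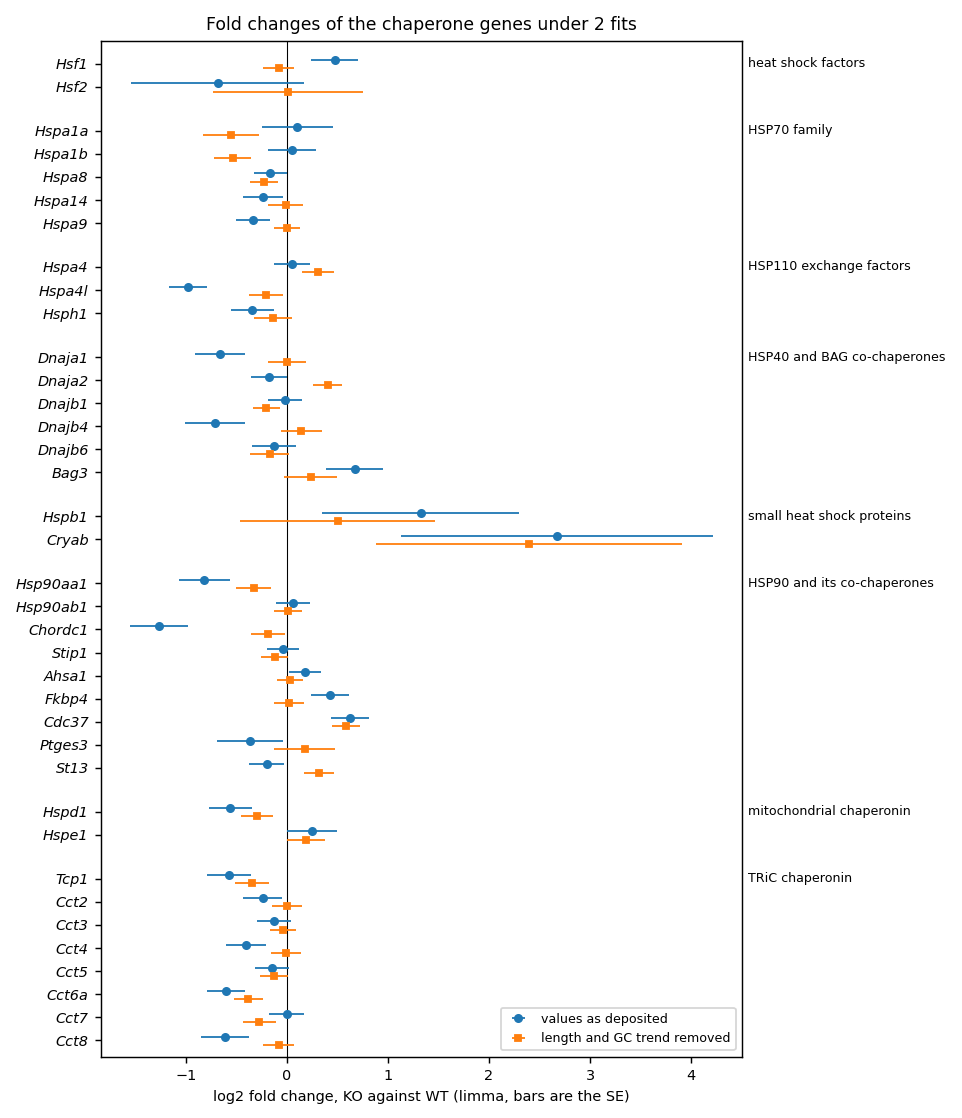
Log2 fold change of KO against WT with its SE for each of the 37 chaperone genes, from limma on the values as deposited (blue circles) and after the trend on length and GC content was taken out (orange squares). Chordc1, Hspa4l, Dnaja1 and Dnajb4 move toward 0 when the trend is removed, Cdc37 stays at 0.58, and Hspa1a and Hspa1b move from 0.10 and 0.05 to -0.55 and -0.54.

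Chordc1 and Dnaja2 were the members on the study's list of transcripts edited in HSCs by a fusion of SYNCRIP with the RNA-editing enzyme ADAR, which marks RNAs that SYNCRIP touches. Their log2 fold changes were -1.26 and -0.18, and -0.19 and 0.40 with the trend removed. The 35 other members had a median of -0.14, and with only 2 genes on the list no comparison was made.

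Partners of these chaperones were read from lists of prefoldin and TRiC partners, other HSP90 co-chaperones, other HSP70 partners, mitochondrial folding and quality control, and other small heat shock proteins. Of 79 listed genes 74 were tested, 0 were called by limma, 17 were higher and 10 lower at an unadjusted p under 0.05 (backgrounds 13.3% and 14.5%), and DESeq2 called 11 higher and 6 lower (backgrounds 9.27% and 9.46%). The median log2 fold change was 0.12, against -0.16 for the 37 genes, and with the trend removed the medians were 0.07 and -0.01. Prefoldin and TRiC partners (11 tested) had a median of 0.12, other HSP90 co-chaperones (17) 0.11, other HSP70 partners (25) -0.11, and mitochondrial folding and quality control (18) 0.29, with 14 of 18 above 0 (6979 of all 13661 genes were). With the trend removed these medians were 0.03, 0.04, 0.06 and 0.19, so that the sign for other HSP70 partners turned. The small heat shock proteins had 3 of 8 genes tested, with log2 fold changes from -0.37 to 0.20.

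The lowest of these partners was Vbp1, a prefoldin subunit that passes actin and tubulin to TRiC, at 2244, 898 and 1956 in WT and 605 and 327 in KO. Its KO values were below WT 2, itself far below the other WT libraries (log2 fold change -1.83, SE 0.42, adjusted p 0.0815 by limma and 0.000580 by DESeq2). Hspa12a, a distant HSP70 relative, had only 14.2, 18.2 and 21.4 in WT and 13.4 and 1.52 in KO (-1.64, SE 1.01). Yme1l1, a protease of the mitochondrial inner membrane, had 1719, 943 and 1518 in WT and 651 and 361 in KO (-1.48, SE 0.33, adjusted p 0.0815 by limma and 0.00182 by DESeq2), with WT 2 again nearest to KO 2. With the trend removed Vbp1 and Yme1l1 were at -0.69 and -0.57.

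The highest partner was Hspa12b, an HSP70 relative known from endothelium, with 275, 148 and 93.4 in WT and 254 and 1154 in KO. Only KO 3 was high, and KO 2 lay inside the WT range (1.79, SE 0.65, adjusted p 0.127 by limma and 0.0131 by DESeq2). Hspa2, best known as the testis HSP70, had 248, 302 and 258 in WT and 373 and 793 in KO (1.02, SE 0.35, adjusted p 0.116 by limma and 0.0275 by DESeq2). Hspbp1, an exchange factor of HSP70, had 2390.1, 2462 and 2478 in WT and 3816 and 5592 in KO (0.92, SE 0.20, adjusted p 0.0815 by limma and 0.00130 by DESeq2). Its KO libraries were clear of 3 nearly equal WT libraries, and with the trend removed it was at 0.22, against 0.77 for Hspa2 and 1.21 for Hspa12b.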

How the data were processed

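Per the labels, sorted HSCs were kept in TRIzol, their RNA was extracted by phenol and chloroform, and the library kit was SMART-Seq v4 Ultra Low Input. The submitters' processing notes name STAR, featureCounts, DESeq2 and build mm10. The annotation, the use of strand and the treatment of reads that match several places are not given in the sources used here. The authors deposited a table of normalized signal, read counts divided by a size factor per library, and a table of their own comparison with fold changes and p-values, which was not used. Every value was a whole multiple of its library's step within 0.01, which gave back whole reads for 100% of values. Without molecular identifiers, reads are not separate molecules, and depth speaks to counting error only.

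Groups followed the genotype labels. The test was limma (3.58.1, R 4.3.3) on log2(value + 1), its variance moderated along mean expression, for the 13661 genes that reached 10 in 2 or more libraries, with all 5 libraries, no covariate and a Benjamini-Hochberg adjusted p under 0.05. Fold changes of low genes depend on the pseudocount on this scale. On the recovered reads, edgeR (4.0.16) and DESeq2 (1.42.0) were alternatives, beside a pseudocount of 10, no filter, TMM scaling, array weights, the replicate number as a block, leaving out each library, and per-library removal of a linear fit to log2 length and to GC content (longest coding transcript, GENCODE M21, 13517 tested genes). The scripts were tested on simulated data. Shared sequence was counted as 50-base stretches of the longest coding transcript of a gene that were found in any annotated transcript of other genes.

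All 37 members are named. Values in every library are given for Hsf1, Hspa1a, Hspa1b, Hspa8, Hsp90aa1, Hsp90ab1, Dnajb1, the 6 highest and 6 lowest log2 fold changes, any member called by limma, edgeR or DESeq2, the 3 highest and 3 lowest genes of the partner lists, and Syncrip. Hspd1 and Hspe1 were added for their shared promoter. The members and lists were chosen with earlier results of these data known.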

Additional observations from a re-analysis of the deposited data

How the results depend on the processing

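DESeq2 called 5 members where limma called 0, and leaving out each library in turn gave 0 to 10 members called. The 10 came without KO 2, with KO 3 alone against the WT libraries and its spread taken from the others (26.6% of all genes called; Cdc37, Fkbp4 and Hsf1 higher, Hspd1, Tcp1, Hsp90aa1, Hspa4l, Cct6a, Cct8 and Chordc1 lower), and without KO 3 there were 0 (0.082%). Members at an unadjusted p under 0.05 numbered 4 with the length and GC trend removed (16% of all genes), and 3 (without KO 3, 14.6% of all genes) to 15 (without KO 2, 40.9%) without 1 library. Genes separated downward numbered 8 with the trend removed (18.2% of all genes) and 14 (26.2%) to 20 (38.8% without KO 2, 29.0% without WT 2) without 1 library, and those separated upward 5 (26.5% or 29.4%) to 10 (29.5%, without WT 2). The median was -0.012 with the trend removed and -0.23 to -0.10 without 1 library. Syncrip was at -2.43 without a filter (limma adjusted p = 0.0503), -2.42 with array weights (0.0595), -1.46 with the trend removed (0.143), -1.42 with the block and the trend removed (0.166), and -2.55 to -2.32 without 1 library (0.00199 to 0.209).

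No label ties libraries by their number, and the check of same-numbered libraries (r = -0.06 for number 2 and -0.18 for number 3 over 13661 genes) could not settle the pairing, since the deviations of 2 KO libraries mirror each other. With the replicate block 3 members had an unadjusted p under 0.05 (15.5% of all genes), and Hspa1a and Hspa1b turned to -0.19 and -0.12. With the replicate block and the trend removed there were 3 (11.7%), and Hsf1 turned to -0.10, Hsf2 to 0.35, Hspa1a to -0.78, Hspa1b to -0.65, Dnaja1 to 0.13, Dnaja2 to 0.43, Dnajb4 to 0.21, Hsp90ab1 to -0.0019, Fkbp4 to -0.025, Ptges3 to 0.37, St13 to 0.30 and Cct4 to 0.064.

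With the trend removed alone, the log2 fold change turned to -0.081 for Hsf1, 0.010 for Hsf2, -0.55 for Hspa1a, -0.54 for Hspa1b, 0.0024 for Dnaja1, 0.40 for Dnaja2, 0.14 for Dnajb4, 0.18 for Ptges3, 0.32 for St13 and 0.0037 for Cct2. Hspa1a and Hspa1b turned to -0.027 and -0.0058 with edgeR, and Hspa1a to -0.0068 and Cct7 to 0.0046 with DESeq2. Without 1 library, signs turned for Hspa1a (-0.19 to 0.48), Hspa1b (-0.12 to 0.28), Hspa4 (-0.10 to 0.19), Dnajb1 (-0.13 to 0.092), Dnajb6 (-0.26 to 0.0091), Hsf2 (-1.55 to 0.19) and Cct7 (-0.14 to 0.14). Over 518 fold changes of members under the alternatives, 40 turned, in 17 members, and 20 members never did. The cause of these shifts was not tested. The 3 WT and 2 KO libraries, KO 3 the shallowest, limit all of these values.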
